A study of Mus musculus with 6 samples.

Results

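The chemokine receptors described here are Cxcr2, Cxcr4, Cxcr3, Cx3cr1, Ccr1, Ccr2, Ccr3, Ccr7 and Ccr9, taken as every probe set that the platform annotation assigns to these genes alone. Each of the 9 genes had 1 probe set, so they make up 9 of the 28815 probe sets on the array. The rule goes by gene name and uses no measured value, but the receptors were chosen with earlier results of these data known.

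Chemokine receptors are 7-pass membrane receptors coupled to inhibitory G proteins, and they steer white blood cells along gradients of small secreted proteins, the chemokines. In bone marrow the best known axis is Cxcl12 and its receptor Cxcr4, which holds hematopoietic stem cells (HSC) and neutrophils in place, while Cxcr2 draws mature neutrophils out into the blood. The other receptors are known mainly from mature cells, such as Ccr2 from monocytes leaving the marrow, Ccr7 from dendritic cells and T cells entering lymph nodes, and Ccr9 from plasmacytoid dendritic cells and T cells homing to the gut and thymus.

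The study asked which genes P-selectin, an adhesion receptor encoded by Selp, controls in HSC, the cells from which all blood lineages arise. There were 3 arrays of HSC from Selp-/- mice and 3 of HSC from wild-type (WT) mice, both labelled C57BL/6, with no treatment named for either genotype. Arrays carry a number from 1 to 3 within each genotype, and the sources used here do not give what that number stands for, how the HSC were sorted, the age of the mice or how the Selp allele was made. Separate mice are not stated either, so a p-value covers the spread among these 6 samples, and that spread may be technical.

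Levels below are log2 intensities after background correction and quantile normalization, and intensities in the deposited unit are given where the size of the raw signal matters. Median intensities ran from 638 to 713 over the Selp-/- arrays and from 563 to 751 over the WT arrays. Both arrays numbered 3 stood apart from the other 4 on the first principal component, which held 68.0% of the variance. In those arrays 7 of 8 HSC markers were low, and Gata2 was not. Hlf, a transcription factor of HSC, was at 8.81 in Selp-/- 3 and 8.88 in WT 3. Both lie near the level of 8.79 under which probe sets were left out of the tests. Xist, the transcript of the inactive X chromosome, had an intensity of 398 in Selp-/- 3, and between 5010 and 10757 in the other 5 arrays. No probe set was named Selp, so the genotype labels were not checked by the deleted gene. The number of arrays limits the precision of every value.

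RefSeq windows of 250 bases before the transcript start were available for 8 of the 9 receptors (build GRCm38.p6, Ccr7 not among them). Those of 3 receptors are shown because the receptors behave in different ways below: Cxcr2 and Ccr1 were high in the arrays numbered 3, and Cxcr4 lay above the filter level in all 6 arrays. The Cxcr2 window is chr1:74153744-74153993 on the plus strand, the Ccr1 window chr9:123968693-123968942 on the minus strand and the Cxcr4 window chr1:128592300-128592549 on the minus strand. Each is written 5′ to 3′ along its gene.
Cxcr2: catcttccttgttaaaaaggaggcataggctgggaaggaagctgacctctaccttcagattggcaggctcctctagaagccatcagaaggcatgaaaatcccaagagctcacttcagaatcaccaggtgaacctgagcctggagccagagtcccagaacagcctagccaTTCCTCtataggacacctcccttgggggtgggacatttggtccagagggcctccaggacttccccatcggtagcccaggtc
Ccr1: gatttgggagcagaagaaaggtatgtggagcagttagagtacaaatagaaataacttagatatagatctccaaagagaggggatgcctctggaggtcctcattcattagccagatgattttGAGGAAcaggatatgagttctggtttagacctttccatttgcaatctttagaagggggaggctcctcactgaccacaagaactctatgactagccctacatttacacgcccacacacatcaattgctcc
Cxcr4: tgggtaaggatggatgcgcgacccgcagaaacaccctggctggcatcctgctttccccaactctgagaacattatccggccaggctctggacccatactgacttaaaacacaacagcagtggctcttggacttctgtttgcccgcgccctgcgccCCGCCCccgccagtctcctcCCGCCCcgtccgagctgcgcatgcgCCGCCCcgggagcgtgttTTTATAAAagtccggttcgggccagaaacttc

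Capitals mark matches to 4 motifs searched on both strands: GAGGAA (the core of sites of PU.1, a myeloid transcription factor), TTGCNNAA (C/EBP), TATAAA (the TATA box) and CCGCCC (the GC box). Cxcr2 held 1 GAGGAA, on the minus strand at -81 and so read as TTCCTC above, and Ccr1 held 1 at -129 on the plus strand. Positions count back from the transcript start to the first base of the match as printed. Cxcr4 held 3 CCGCCC, at -95, -75 and -50 on the plus strand. It also held TATAAA on both strands, in overlapping matches at -32 and -30. Among 32851 windows of the same length, 23.3% held GAGGAA, 9.56% TTGCNNAA, 12.4% TATAAA and 32.7% CCGCCC. Of the windows not shown, Cxcr3 held 1 GAGGAA at -14 and Ccr3 held 1 at -181, and neither receptor was high in the arrays numbered 3. Ccr2, which was high there, held no match to any of the motifs, and neither did Ccr9 or Cx3cr1. These matches describe letters and were not tested as binding sites.

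Cxcr2, the receptor of mature neutrophils for Cxcl1, Cxcl2 and Ppbp, gave intensities of 576, 336 and 3205 in Selp-/- 1 to 3, against 681, 429 and 6725 in WT 1 to 3. Its signal was thus high in both arrays numbered 3 and low in the other 4. On the normalized scale, arrays numbered 3 exceeded the mean of the other 2 of their genotype 8.68 times in Selp-/- and 12.7 times in WT HSC. The mean of the other 4 arrays was 8.59 on the log2 scale, below 8.79, so Cxcr2 passed the filter on low levels through the arrays numbered 3 alone.

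Cxcr4, the receptor of the marrow chemokine Cxcl12, had levels of 11.09, 11.13 and 11.39 in the Selp-/- arrays and 11.13, 11.24 and 11.63 in the WT arrays. Intensities were 2724, 2077 and 3164 in Selp-/-, against 2254, 1980 and 3794 in WT. All 6 arrays lay within a range of 0.54, and both arrays numbered 3 lay above the other 4.

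Ccr1, a receptor of inflammatory chemokines such as Ccl3 on myeloid cells, was dim. It measured 7.22, 7.10 and 8.45 in the Selp-/- arrays and 7.53, 7.10 and 9.04 in the WT arrays, a mean below 8.79, so it was left out of the filtered tests. Its arrays numbered 3 nonetheless lay above the other 4, by 2.45 times in Selp-/- and 3.29 times in WT HSC relative to the other 2 arrays of the genotype.

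Ccr2, the receptor for Ccl2 that lets monocytes leave the marrow, measured 8.69, 8.89 and 10.20 in Selp-/- HSC, against 8.31, 8.95 and 10.80 in WT HSC. The arrays numbered 3 were again the high ones, 2.67 times above the others in Selp-/- and 4.50 times in WT. Its other 4 arrays averaged 8.71, so Ccr2 too passed the filter only through the arrays numbered 3.

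Ccr3, the eotaxin receptor of eosinophils and basophils, was also dim and left out of the filtered tests. It measured 8.32, 8.61 and 8.27 in the Selp-/- arrays and 8.19, 8.41 and 8.14 in the WT arrays, and its arrays numbered 3 were not high.

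Ccr7, the receptor for Ccl19 and Ccl21 that leads dendritic cells and T cells into lymph nodes, gave intensities of 1062, 876 and 4863 in Selp-/- HSC, against 983, 997 and 7077 in WT HSC. On the log2 scale these were 9.71, 9.67 and 12.05 in Selp-/-, and 9.81, 10.11 and 12.62 in WT. Its arrays numbered 3 stood 5.14 times above the others in Selp-/- and 6.30 times in WT.

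Ccr9, the receptor for Ccl25, took another course. It measured 9.12, 9.29 and 10.27 in the Selp-/- arrays, with intensities of 710, 711 and 1470. The WT arrays measured 9.78, 9.54 and 8.55, with intensities of 965, 717 and 557. Selp-/- 3 was the highest array and WT 3 the lowest.

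Cxcr3, the receptor of activated T cells for Cxcl9, Cxcl10 and Cxcl11, measured 9.19, 9.60 and 9.25 in Selp-/- HSC and 9.48, 9.45 and 9.20 in WT HSC. Cx3cr1, the fractalkine receptor of patrolling monocytes and macrophages, measured 9.59, 10.01 and 9.97 in Selp-/- HSC and 9.85, 9.70 and 9.93 in WT HSC. Neither gene's 6 values spread over more than 0.42, and the arrays numbered 3 lay among the others.

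**Figure D1:**
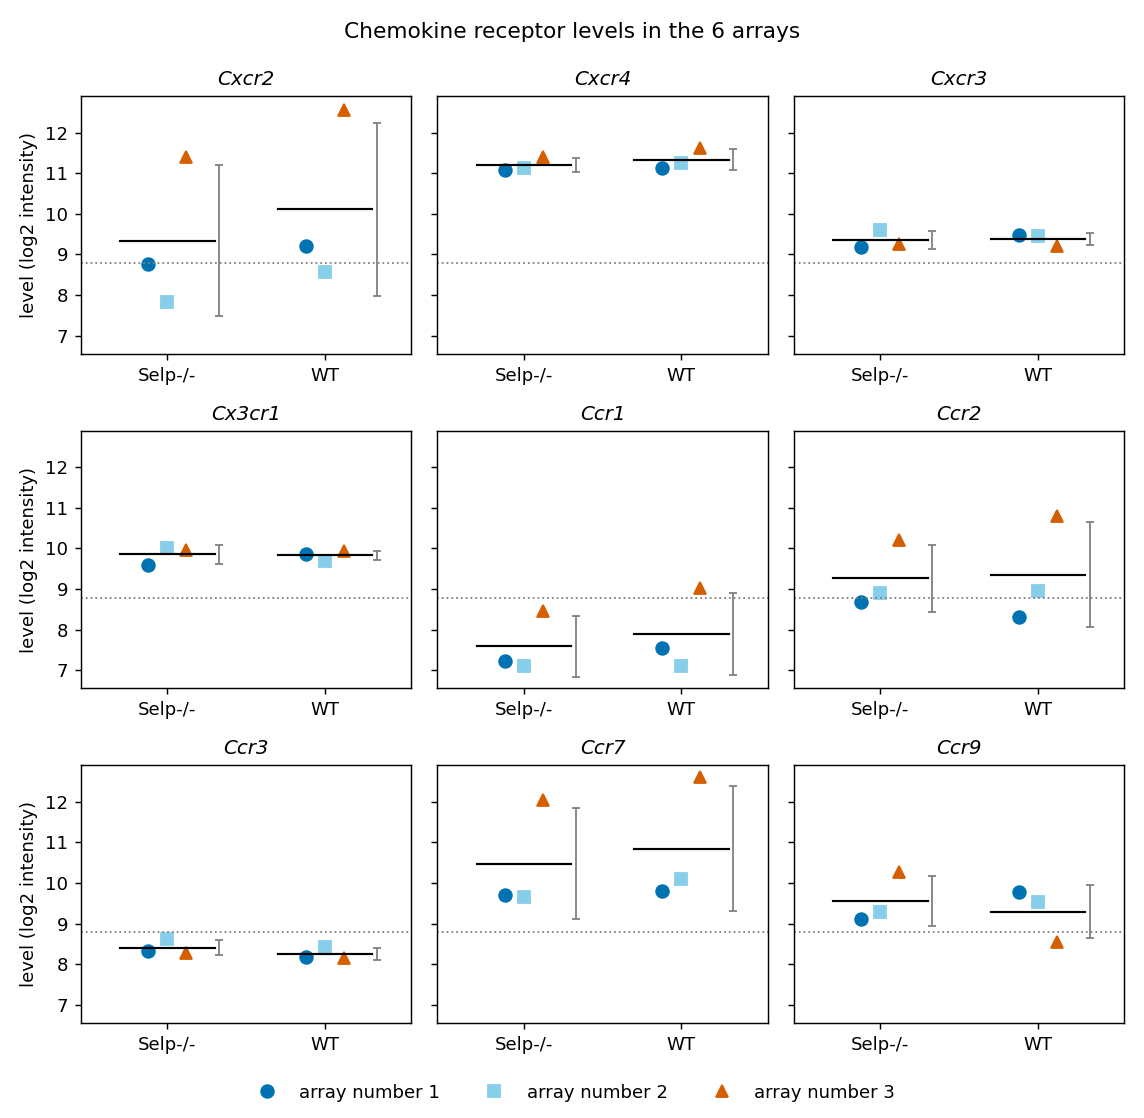
Level (log2 intensity) of each receptor in the 3 Selp-/- arrays (left) and the 3 WT arrays (right) of each panel, with the array number as the symbol, the mean as a black line, the SD (n = 3) as a grey bar and the filter level of 8.79 dotted. Cxcr2, Ccr1, Ccr2 and Ccr7 are high in the arrays numbered 3 of both genotypes, and Ccr9 is highest in Selp-/- 3 and lowest in WT 3.

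The first comparison asked whether HSC without P-selectin differ from WT HSC in these receptors. Cxcr2, Ccr7 and Cxcr4 were lower in mean in Selp-/- HSC and lower at each of the 3 array numbers, but no receptor differed past an adjusted p of 0.05. Cxcr2 averaged 9.34 ± 1.86 in Selp-/- HSC and 10.11 ± 2.14 in WT HSC (SD, n = 3 each), a difference of -0.78, or 0.584 times the WT level. Array by array the Cxcr2 difference was -0.44, -0.75 and -1.14 at numbers 1, 2 and 3. In bulk RNA, fewer cells that make a receptor and less RNA per cell cannot be told apart.

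Ccr7 averaged 10.48 ± 1.36 in Selp-/- HSC and 10.85 ± 1.54 in WT HSC (SD, n = 3 each), with differences of -0.10, -0.44 and -0.56 at the 3 numbers. Cxcr4 averaged 11.20 ± 0.16 in Selp-/- HSC and 11.33 ± 0.26 in WT HSC, with differences of -0.04, -0.11 and -0.24. The Cxcr4 difference was small enough to turn with the scaling: with neither background correction nor normalization it was 0.03, and -0.08 relative to the median of all probe sets, which that scaling moved to 0.11. Among the dim receptors, Ccr1 had differences of -0.32, -0.01 and -0.59, and Ccr3, with 0.14, 0.20 and 0.13, had the higher level in Selp-/- at each number.

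In the limma fit of genotype over 17289 probe sets, 0% were called higher in Selp-/- than in WT and 0% lower, at a threshold of 0.05 on the adjusted p. The lowest adjusted p was 1, and 0 of the 7 receptors tested passed. At an unadjusted p under 0.05 there were 0 of these 7 receptors, beside 0.706% of all probe sets. No receptor had groups that did not overlap, a pattern of 4.21% of the probe sets. Of the 7, 5 lay below 0 in mean, beside 48.2% of all, and 3 lay lower at all 3 numbers, beside 11.2% of all. None of the 7 was higher at all 3 numbers, as 12.6% were. The median difference was -0.095 over the 7 receptors and 0.00539 over all probe sets tested.

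Arrays that share a number were taken as pairs, since their deviations from the genotype means correlated at 0.428, 0.526 and 0.814 at numbers 1, 2 and 3. Selp-/- 1 correlated more with WT 2 (0.514) than with WT 1, so only the pair of number 3 stands out. The labels state no pairing, and the block was judged on these same data. With the replicate number as a block, limma again called 0% higher and 0% lower (lowest adjusted p 0.124), while the SE of the Cxcr2 difference shrank to 0.14, against 1.25 without the block. Its unadjusted p was then 0.00108 and its adjusted p 0.983, with a 95% interval of -1.12 to -0.44. Ccr7 had an unadjusted p of 0.0229 and an adjusted p of 0.983 (limma, block), with an interval of -0.67 to -0.07. They were 2 of 7 receptors at an unadjusted p under 0.05, beside 3.64% of all probe sets, and 2 of 7 on the lower side, beside 1.75%. Neither difference passed the correction over all probe sets. With the replicate number as a random block, the SE was 0.67 for Cxcr2 and 0.49 for Ccr7, and the unadjusted p-values were 0.282 and 0.476 (limma, adjusted p = 0.998 for both).

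The block gave 95% intervals of -0.38 to 0.12 for Cxcr4, -0.31 to 0.25 for Cxcr3 and -0.28 to 0.33 for Cx3cr1. Those for Ccr2 and Ccr9 were wider, -0.52 to 0.33 and -0.70 to 1.23. For Ccr2 the differences were 0.37, -0.06 and -0.60 at numbers 1, 2 and 3. In the arrays numbered 1 and 2 alone Ccr2 was 0.16 higher in Selp-/- HSC.

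**Figure D2:**
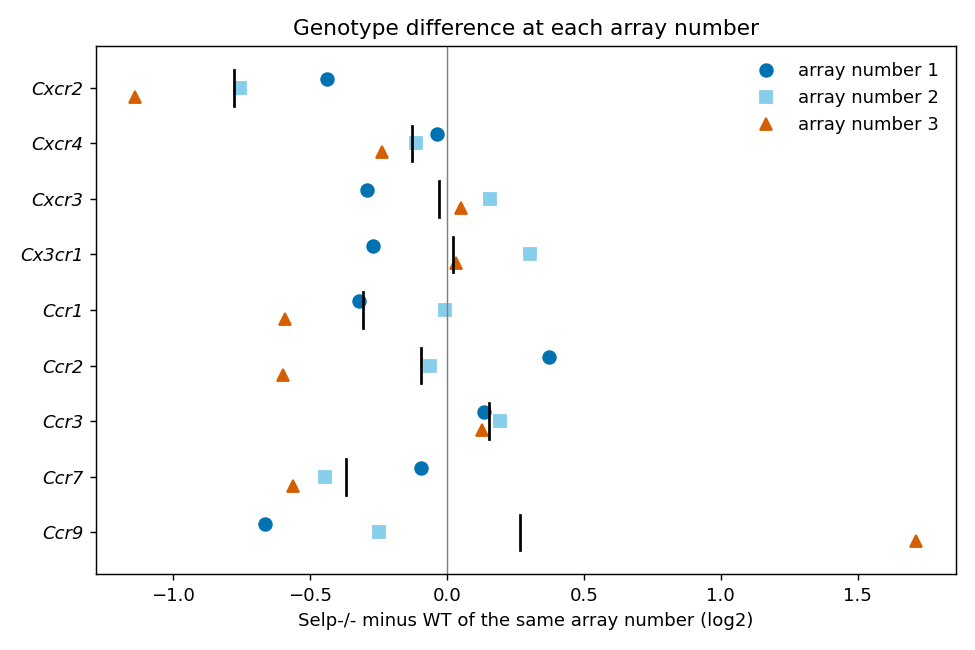
Difference in level (log2, Selp-/- minus WT) of each receptor between the arrays of the same number, with the mean of the 3 differences as a black bar. Cxcr2, Cxcr4, Ccr1 and Ccr7 lie below 0 at each number and Ccr3 above 0 at each, while Ccr9 lies below 0 at numbers 1 and 2 and at 1.71 at number 3.

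Ccr9 differed by -0.66 and -0.25 at numbers 1 and 2, and by 1.71 at number 3. Relative to the mean of arrays 1 and 2, Ccr9 lay 1.06 higher in Selp-/- 3 and at -1.11 in WT 3. Arrays numbered 3 moved in opposite directions from both other arrays in this way for 9.13% of the probe sets tested, and for 1 of the 7 receptors. Its mean difference was 0.27 over all 3 numbers, and -0.46 in the arrays numbered 1 and 2 alone, where its unadjusted p was 0.0139 and its adjusted p 1 (limma). Siglech, a marker of plasmacytoid dendritic cells that was chosen after its values were seen, measured 9.27, 9.13 and 9.92 in the Selp-/- arrays and 9.32, 9.44 and 9.02 in the WT arrays. Its highest array was Selp-/- 3 and its lowest WT 3. Other markers of these cells did not share that order. Bst2, also chosen after its values were seen, measured 9.95, 10.09 and 10.75 in Selp-/- and 10.22, 9.85 and 10.44 in WT HSC, and Tcf4 10.85, 11.15 and 10.39 in Selp-/- and 11.15, 11.20 and 10.32 in WT HSC. Of the 9 dendritic cell markers tested, 1 rose and 2 fell in the arrays numbered 3, beside 5.20% and 5.55% of all probe sets. The summed normalized level of the list ran from 16040 to 24267 in Selp-/- and from 17425 to 22639 in WT HSC. No dendritic marker was at 0, the lowest intensity being 425. Their part in the Ccr9 values was not tested.

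The second comparison set the arrays numbered 3 against those numbered 1 and 2, in a limma fit with genotype as a further term. The labels give no condition for the number, so it compares arrays and not treatments. Cxcr2, Ccr7 and Ccr2 were higher in the arrays numbered 3 of both genotypes. Cxcr2 averaged 11.98 over the arrays numbered 3 and 8.59 over the other 4. For Ccr7 the averages were 12.33 over the arrays numbered 3 and 9.83 over the other 4, and for Ccr2 they were 10.50 over the arrays numbered 3 and 8.71 over the other 4. Cxcr4, at 11.51 in the arrays numbered 3 and 11.15 in the others, did not pass the test, and neither did Cxcr3, Cx3cr1 and Ccr9.

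By the F test for the array number 12.8% of the probe sets passed an adjusted p of 0.05, and 3 of the 7 receptors tested did. Cxcr2 was 2.99 higher at number 3 than at number 1 (log2, SE 0.18, adjusted p = 0.000384) and 3.79 higher than at number 2 (adjusted p = 0.000158, limma). Ccr7 was 2.57 (SE 0.15) and 2.45 higher by the same contrasts, with adjusted p-values of 0.000403 and 0.000362. Ccr2 was 2.00 (SE 0.22) and 1.58 higher, with adjusted p-values of 0.00272 and 0.00515.

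All 3 passed both contrasts on the higher side, where 5.20% of the probe sets did so, and none of the 7 did on the lower side, where 5.55% did. Taken one at a time, number 3 was called higher than number 1 for 6.08% of the probe sets and lower for 7%, and higher than number 2 for 7.80% and lower for 9.48%. Each time these were 3 of the 7 receptors on the higher side and 0 on the lower side. Between numbers 2 and 1, 0.0521% of the probe sets were called and 0 of the 7 receptors, the Cxcr2 difference being -0.79 with an adjusted p of 0.371. Cxcr2 and Ccr2 were tested only because their arrays numbered 3 were high, as were 442 probe sets in all, so that these counts over the receptors tested are not counts over all 9.

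With all 28815 probe sets kept, 6.07% passed the F test and 4 of 9 receptors did, Ccr1 being the added one. Both contrasts were passed on the higher side by 2.58% of the probe sets and by the same 4 receptors. The receptors were chosen with earlier results of these data known, so these counts are no independent test of the family. Ccr1 was 1.37 higher than at number 1 (adjusted p = 0.00882) and 1.64 higher than at number 2 (adjusted p = 0.00424, limma). Cxcr4 had F test adjusted p-values of 0.135 with the filter and 0.136 without it. Its differences were 0.40 (SE 0.13) from number 1 and 0.32 from number 2, and it passed with neither background correction nor normalization (adjusted p = 0.00452, limma). In that setting 5901 probe sets passed the F test, against 2217 in the main setting. It also leaves in the higher median intensities of Selp-/- 3 (713) and WT 3 (751), each the highest of its genotype. Both arrays numbered 3 lay above the other 4 for Cxcr4 as for Cxcr2, Ccr2 and Ccr7, 4 of the 7 receptors, where 20.1% of the probe sets did so. They lay below the other 4 for none of the 7, where 25.1% did. Cxcr2 and Ccr2 were tested only because their arrays numbered 3 were high, so the filter favours this order among the receptors tested.

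The median contrast of number 3 with number 1 was 0.40 over the 7 receptors and -0.01 over all probe sets tested. The median contrast with number 2 was 0.32 over the 7 receptors and -0.02 over all. Both receptor medians include Cxcr2 and Ccr2, which passed the filter only through the arrays numbered 3. Ccr9 had contrasts of -0.04 and -0.00330 with its 2 genotypes on opposite sides. The F test gave adjusted p-values of 0.997 for Ccr9, 0.354 for Cxcr3 and 0.558 for Cx3cr1 (limma).

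Chromosome 9 carries 5 of the 9 receptors. The windows of Ccr9, Ccr1, Ccr3 and Ccr2 follow each other there, with starts at 123766961, 123968693, 124021721 and 124101933, and Cx3cr1 lies apart at 120068297 (GRCm38.p6). Neighbours in this order differed in behaviour. Ccr1 and Ccr2 were high in the arrays numbered 3 of both genotypes, Ccr3 between them was not, and Ccr9 was high in Selp-/- 3 alone.

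Many markers of mature myeloid cells were high in the same arrays. Counts of markers are of those tested, and summed levels, on the linear scale after normalization, cover all markers of a list with a probe set. Beside these counts, 5.20% of all probe sets tested were higher by both contrasts and 5.55% lower. Of 9 monocyte and macrophage markers tested, 7 were higher in the arrays numbered 3 by both contrasts and 0 lower. Their summed level ran from 12935 to 46691 in Selp-/- and from 12093 to 27185 in WT HSC. Cd68, a lysosomal protein of macrophages, and the summed list were highest in Selp-/- 3, Cd68 with 13.16 there and 12.52 in WT 3. Adgre1 and Itgam, surface proteins of macrophages and myeloid cells, were highest in WT 3, as Ccr2 was, with 11.49 in Selp-/- 3 and 11.95 in WT 3 for Adgre1, and 10.54 in Selp-/- 3 and 11.12 in WT 3 for Itgam. These 3 markers were those of smallest F test p in the list, so they were picked for their difference between array numbers. Irf8, with contrasts of -0.09 and -0.42, and F13a1, with -0.02 and 0.20, did not pass. Irf8 and F13a1 were named after their values were seen.

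Of 8 neutrophil markers tested, 3 were higher in the arrays numbered 3 and 0 lower, with summed levels of 41803, 17941 and 58743 in the Selp-/- arrays and 37493, 18852 and 59489 in the WT arrays. These sums were lowest at number 2, as Cxcr2 was in both genotypes. S100a8, a calcium-binding protein of neutrophils, measured 10.34, 8.75 and 12.05 in Selp-/- and 10.87, 8.33 and 12.31 in WT HSC. Relative to WT it was thus at -0.53, 0.42 and -0.26 at the 3 numbers, where Cxcr2 was lower each time. Ngp, a neutrophil granule protein, measured 12.32, 9.76 and 13.06 in Selp-/- and 12.57, 9.13 and 13.46 in WT HSC. It passed the contrast with number 2 but not with number 1 (0.81, adjusted p = 0.0718, limma). Csf3r, on the same list, had contrasts of -0.50 with number 1 and -0.50 with number 2. Those of Camp were -0.06 and 0.40, and neither gene passed. Csf3r and Camp were chosen after their values were seen.

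All 5 basophil and mast cell markers tested were higher, with sums from 5218 to 43293 in Selp-/- and from 4593 to 56947 in WT HSC, as were 3 of 4 eosinophil markers, with sums from 2713 to 5048 in Selp-/- and from 2881 to 5569 in WT HSC. Of these, 1 of the 5 basophil and mast cell markers, 2 of the 4 eosinophil markers and 1 of the 9 monocyte markers were tested only because their arrays numbered 3 were high. With all probe sets kept, 9 of 10 basophil and mast cell, 3 of 6 eosinophil and 5 of 9 monocyte markers were higher. Only 2 of 10 neutrophil markers were, beside 2.58% of all probe sets. HSC markers were the reverse, with 0 of 8 higher by both contrasts. Of them 7 were lower with the filter and 6 with all probe sets kept. Gata2, named after its values were seen, went the other way, with 12.30 in Selp-/- 3 and 13.02 in WT 3, above the other 4 arrays. It passed the contrast with number 1 (1.03, adjusted p = 0.0326) but not with number 2 (0.69, adjusted p = 0.083, limma). Sums of the HSC markers ran from 14625 to 37816 in Selp-/- and from 17231 to 36507 in WT HSC. The arrays numbered 3 held the lowest sum of each genotype. No marker of these lists was at 0, and the lowest intensities were 362 for monocyte, 235.5 for neutrophil, 203 for basophil and mast cell, 359 for eosinophil and 400 for HSC markers. Their part in the levels of Cxcr2, Ccr1, Ccr2 and Ccr7 was not tested.

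T and NK cells also carry Ccr7 and Cxcr3. Of their 4 markers tested, 1 was higher in the arrays numbered 3 and 0 lower, with sums from 3247 to 4468 in Selp-/- and from 3042 to 5217 in WT HSC and a lowest intensity of 267. The higher one was Il7r, the interleukin 7 receptor, with 9.15, 9.03 and 10.74 in Selp-/- and 8.72, 9.54 and 11.37 in WT HSC. Cd3e, a defining chain of the T cell receptor complex, measured 9.24, 9.49 and 9.37 in Selp-/- and 9.42, 9.27 and 9.25 in WT HSC. Cd3d, another chain of that complex, was dim and not tested, with 7.69, 7.86 and 7.95 in Selp-/- and 7.88, 7.84 and 8.13 in WT HSC, and was chosen after its values were seen. The part of these markers in the Ccr7 levels was not tested. Of 7 B cell markers, 0 were higher and 1 lower, with sums from 5047 to 8837 in Selp-/- and from 6726 to 13701 in WT HSC. Of 5 erythroid markers, 0 were higher and 2 lower, and of 7 megakaryocyte markers 1 was higher and 0 lower. Erythroid sums ran from 4585 to 27613 in Selp-/- and from 4575 to 27702 in WT HSC, lowest in the arrays numbered 3. Megakaryocyte sums ran from 9213 to 13356 in Selp-/- and from 6613 to 23326 in WT HSC, highest in the arrays numbered 3. Over all probe sets 5.20% were higher and 5.55% lower. With lists this short, a single call is no result about a list.

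**Figure D3:**
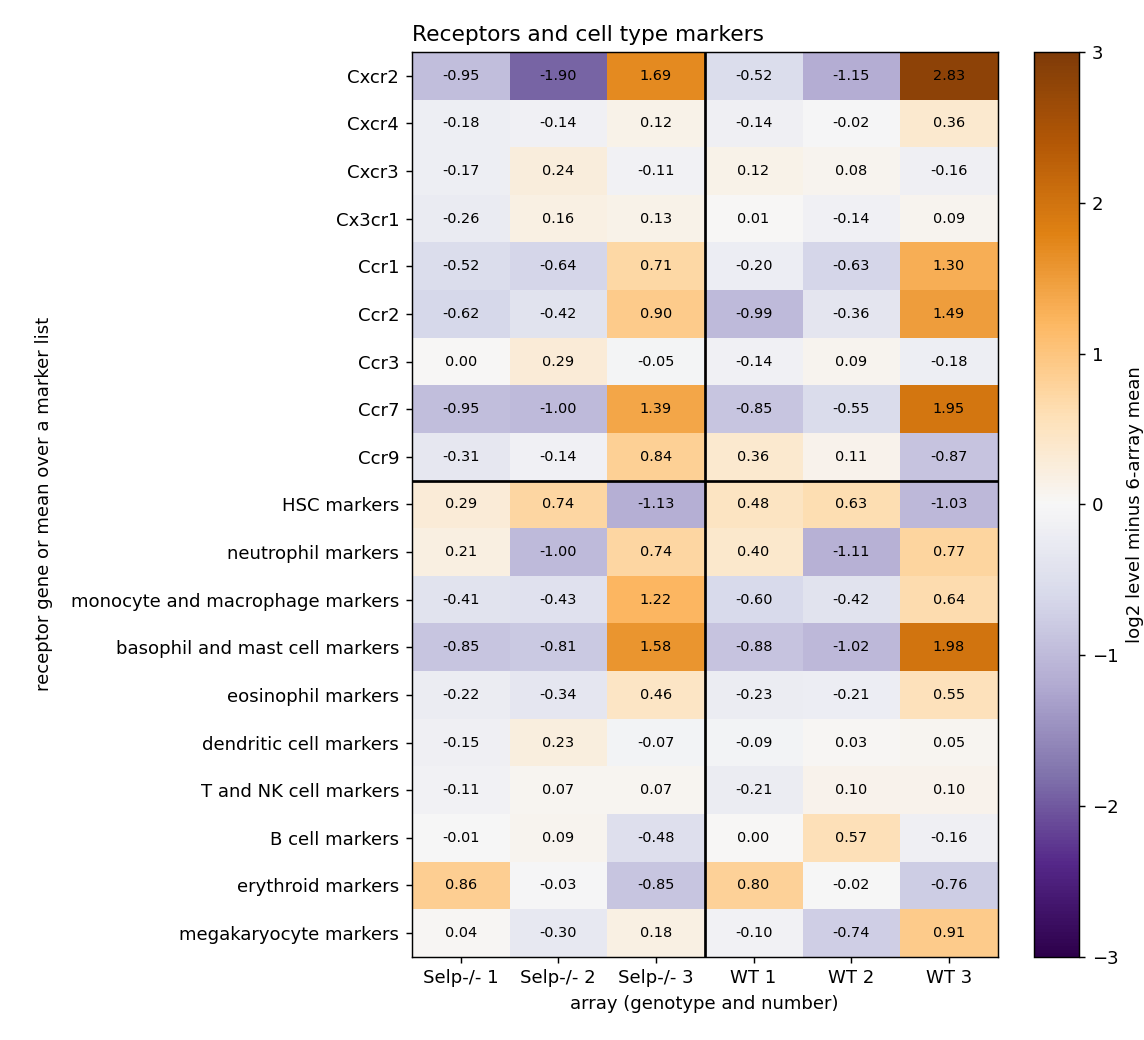
Level of each receptor, and mean level over each cell type marker list, minus its own mean over the 6 arrays (log2, colour and number), in the Selp-/- arrays (left of the line) and the WT arrays (right). Cxcr2, Ccr1, Ccr2 and Ccr7 share their high values in the arrays numbered 3 with the neutrophil, monocyte, basophil and eosinophil lists. The megakaryocyte mean is also highest there within each genotype. The HSC, erythroid and B cell means are lowest there.

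Other receptors of the family were mostly dim. Of 10 with a probe set, 3 passed the filter. With all probe sets kept, 0 of the 10 were higher in the arrays numbered 3 by both contrasts, beside 2.58% of all, and 0 lower. Cxcr1, the sister of Cxcr2, measured 8.67, 8.90 and 9.08 in Selp-/- and 8.72, 8.87 and 9.53 in WT HSC, with an F test adjusted p of 0.0789 (limma). Both of its arrays numbered 3 were the highest of their genotype. Ccrl2 and Ccr10 had adjusted p-values of 0.192 and 0.765. Of the 5 atypical receptors, which bind chemokines without G protein signalling, 2 passed the filter and neither passed a test, with 0.173 for Pitpnm3 and 0.425 for Ackr2. Ackr3, the second receptor of Cxcl12, was dim in all 6 arrays, between 8.41 and 8.66, and was chosen after its values were seen.

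Chemokine ligands were also higher in the arrays numbered 3. Of 34 listed, 33 had a probe set and 22 passed the filter, and of these 12 were higher by both contrasts and 0 lower, beside 5.20% and 5.55% of all probe sets. Of the 22, 6 passed the filter only through the arrays numbered 3, 5 of them among the 12, and 7 of the other 16 were higher. With all probe sets kept, 11 of the 33 ligands were higher by both contrasts, beside 2.58% of all, and 0 lower, with a median contrast with number 1 of 0.51. Ccl6, a myeloid chemokine that binds Ccr1, measured 8.76, 8.62 and 12.63 in Selp-/- and 8.88, 8.75 and 13.27 in WT HSC, 4.13 above number 1 (F test adjusted p = 0.000157, limma). Ccl3, a ligand of Ccr1, measured 9.70, 10.37 and 12.70 in Selp-/- and 10.43, 10.22 and 13.50 in WT HSC. Ccl2, the ligand of Ccr2, measured 10.26 in Selp-/- 3 and 10.54 in WT 3, and lay between 8.77 and 9.08 in the other 4 arrays. All 3 ligands had both arrays numbered 3 above the other 4. Cxcl16, the ligand of Cxcr6, did so as well, with 8.21, 8.16 and 10.33 in Selp-/- and 8.06, 8.11 and 10.40 in WT HSC.

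The other 8 ligands that passed, named after their values were seen, were Ccl4, Ccl5, Ccl7, Ccl9, Ccl17, Ccl22, Cxcl10 and Ppbp, which include ligands of Ccr1, Ccr2, Ccr3, Cxcr3 and Cxcr2. The ligands listed for Cx3cr1, Ccr9 and Ccr7 did not pass. Cx3cl1, the ligand of Cx3cr1, measured 9.09, 9.30 and 9.31 in Selp-/- and 9.32, 9.15 and 9.56 in WT HSC. The tested probe set of Ccl25, the ligand of Ccr9, stayed between 9.10 and 9.36, and showed neither the high value of Ccr9 in Selp-/- 3 nor its low value in WT 3. Ccl19, a ligand of Ccr7, had 5 probe sets for near-identical gene copies and is therefore uncertain. It had contrasts below 0 on each probe set, none of which passed. Cxcl12 was left out of the tests as dim, with 8.53, 8.54 and 8.47 in Selp-/- and 8.69, 8.50 and 8.40 in WT HSC. Cx3cl1, Ccl25, Ccl19 and Cxcl12 were named because their receptors are described here, with their values seen.

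Between genotypes none of the 22 ligands passed the test in either fit. Of them 4 lay above 0 and 18 below, beside 48.2% of all probe sets below, and their median was -0.09, beside 0.00539 over all. These 22 include 6 that passed the filter only through the arrays numbered 3. Ccl24, Ccl17, Ppbp and Pf4 lay above 0 at numbers 1 and 2 and below 0 only at number 3, at -2.34, -1.06, -1.01 and -0.75. Ccl2 and Ccl6 lay below 0 at each number. Cxcl10, an interferon-induced ligand of Cxcr3, lay above 0, with 8.88, 8.81 and 9.79 in Selp-/- and 8.50, 8.63 and 9.25 in WT HSC. Ccl3 lay at -0.46 and Ccl22, a ligand of Ccr4, at -0.57. Ccl22 measured 8.63, 8.89 and 10.56 in Selp-/- and 8.67, 8.97 and 12.16 in WT HSC, so that its difference lay mainly at number 3. Cxcl10, Ccl22, Ccl24, Ccl17, Ppbp and Pf4 were chosen after their values were seen.

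**Figure D4:**
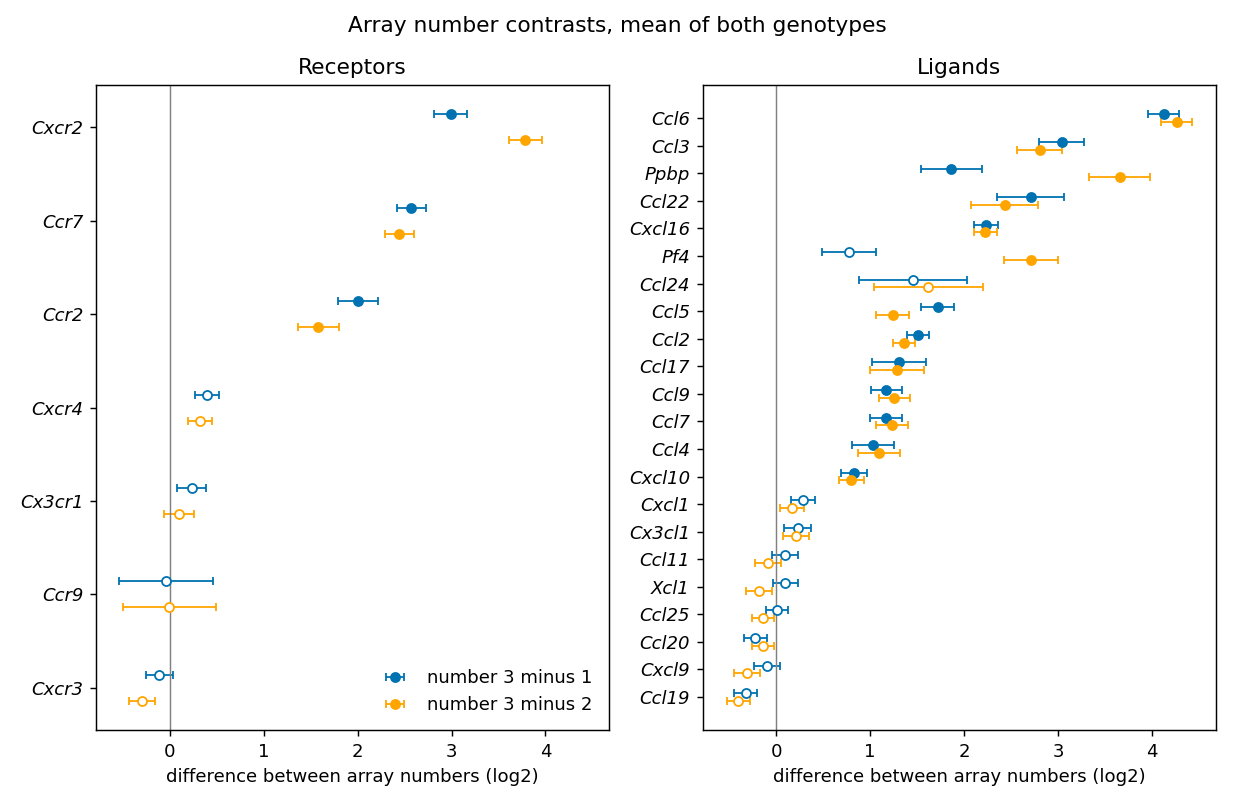
Difference in level (log2, with SE) of arrays numbered 3 from arrays numbered 1 (blue) and 2 (orange), as the mean of both genotypes, for the 7 receptors tested (left) and the brightest probe set of each ligand tested (right). Filled points passed an adjusted p of 0.05 (limma): 3 receptors and 12 ligands passed both contrasts, and no receptor or ligand passed on the lower side.

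Some genes of the signalling machinery behind the receptors were called. Of 40 listed genes for G proteins, receptor kinases, arrestins, RGS proteins and downstream effectors, 38 had a probe set and 35 passed the filter. By the F test for the array number 7 of the 35 passed, beside 12.8% of all probe sets. Both contrasts of number 3 were passed by 3 of the 35 on the higher side and 2 on the lower, beside 5.20% and 5.55% of all probe sets, which is no result about the list. Between genotypes 0 passed in either fit. Arrb2, the arrestin that desensitizes Cxcr2 and Cxcr4, measured 10.97, 11.04 and 11.78 in Selp-/- and 11.27, 10.64 and 12.25 in WT HSC (F test adjusted p = 0.0286). Pik3r6 and Pik3r5, which regulate the phosphoinositide kinase that G proteins activate, rose as well, and Pik3r6 was 0.54 above number 1. Pik3r5 was chosen after its values were seen. Those that fell were Rgs18, which ends G protein signals in platelets, and Elmo1, a partner of Dock2 in Rac activation. Rgs18 measured 12.40, 12.71 and 11.66 in Selp-/- and 12.25, 12.69 and 11.84 in WT HSC. Elmo1 measured 11.37, 11.61 and 10.74 in Selp-/- and 11.41, 11.56 and 10.77 in WT HSC.

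Of 10 listed genes that act with Cxcr4 or trim its ligand, 9 were tested, and 0 passed between genotypes. In the arrays numbered 3, 2 rose and 1 fell, beside 5.20% and 5.55% of all probe sets. The one that fell was Dpp4, a surface peptidase that inactivates Cxcl12, with 10.01, 10.08 and 8.39 in Selp-/- and 9.75, 10.24 and 8.40 in WT HSC. Elane, a neutrophil elastase that also cleaves Cxcl12, rose, with 13.63, 12.19 and 14.20 in Selp-/- and 13.26, 12.16 and 14.07 in WT HSC. Elane is also on the neutrophil list.

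Genes with the most similar profile were found for the 4 tested receptors that spread over at least 1 on the log2 scale, as the smallest root mean square difference of centred levels over the 6 arrays among 11879 genes. For Cxcr2 they were Clec4b2, a lectin of myeloid cells, at 0.387, the ubiquitin ligase Rnf128 at 0.455 and the cytokine receptor chain Csf2rb2 at 0.513. For Ccr2 they were Cd83, a surface protein of mature dendritic cells, at 0.113, and the amino acid transporter Slc7a8 and the transcription factor Creb3l1, each at 0.122. For Ccr7 they were the matrix protein gene Thbs1 at 0.083, Igfbp7 at 0.132 and the eosinophil peroxidase Epx at 0.160. Ccr9 had Myof at 0.265, Cd7, a surface protein of T and NK cells, at 0.291 and Cd180, a Toll-like surface protein of B cells and myeloid cells, at 0.294. Clec4b2 measured 8.10, 7.65 and 10.41 in Selp-/- and 7.85, 7.80 and 11.36 in WT HSC. Genes compared had to pass the filter, and Clec4b2, Rnf128, Cd83 and Epx did so only through their arrays numbered 3. The filter thus favoured profiles that are high in those arrays. Cd180 measured 11.06, 11.28 and 11.80 in Selp-/- and 11.17, 11.30 and 10.83 in WT HSC, opposite in the arrays numbered 3 as Ccr9 was.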

How the data were processed

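RNA of 3 Selp-/- and 3 WT arrays was amplified with a NuGEN Ovation kit and labelled with biotin, per the labels' protocols. The authors deposited linear probe set intensities. Per the submitters' processing notes MAS5 was used, with neither version nor scale stated. Intensities were corrected with normexp (offset 50), log2 transformed and quantile normalized in limma 3.58.1 (R 4.3.3). Probe sets with a mean under the 40th percentile (8.79) were left out, which left 17289 of 28815, 7 of them receptors. Genotype was fitted by lmFit and eBayes with a variance trend, two-sided, with the replicate number as a block beside it. A second fit tested array number by an F test and contrasts. P-values were adjusted over all probe sets tested by Benjamini-Hochberg at 0.05. A log2 intensity is not set against that of another probe set.

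The deviations of same-numbered arrays from their genotype means correlated at 0.428, 0.526 and 0.814, and the arrays were paired by number. Numbers 1 and 2 also correlated across genotypes (0.514 for Selp-/- 1 with WT 2 and 0.37 for Selp-/- 2 with WT 1), so their pairing is uncertain. With 3 arrays against 3 an exact permutation test cannot give p under 0.1. Gene names came from the platform annotation, updated through RefSeq (GRCm38.p6): 21780 probe sets had 1 symbol, 1605 several and 5430 none, and 21689 matched RefSeq. No array pair had identical values. The fits were tested on simulated data.

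The receptors and all gene lists were chosen with earlier results of these data known. Genes named beside the receptors are, for each receptor tested that spread over 1, the 3 of most similar profile, and from each list up to 4 (cell type markers up to 3) of smallest F test p, of which some are given. Others are said to be chosen after their values were seen. Alternatives were other normalizations, backgrounds, filters and variance models, leaving out each array, the replicate number as a random block, and arrays 1 and 2 alone.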

Additional observations from a re-analysis of the deposited data

Results flagged for a closer look

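Ccr9 stood out because the arrays numbered 3 moved in opposite directions in the genotypes. Relative to the mean of arrays 1 and 2 of its genotype, Ccr9 lay 1.06 higher in Selp-/- 3 and at -1.11 in WT 3. With 1 array numbered 3 in each genotype the difference was not tested. The same kind of opposite move was seen for 9.13% of the probe sets tested.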

How the results depend on the processing

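The genotype test called 0 probe sets in either direction in the main setting and without any 1 array (0 to 0). Arrays numbered 1 and 2 alone gave 4 lower. The replicate block gave 0 and 0, and moved the probe sets at an unadjusted p under 0.05 to 630, against 122 without it. Combined with median centring the block gave 1 lower, and with no background correction and no normalization 41 higher and 29 lower, among them none of the receptors. These combined settings were chosen after seeing the data. The F test for array number called 2217 probe sets, and 5901 without background correction and normalization. Leaving out 1 array gave 1007 (without WT 3) to 2239 (without Selp-/- 1), and 1431 without Selp-/- 3.

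Of the receptors, Cxcr4 and Cxcr3 changed sign between genotypes to 0.026 and 0.054 with neither background correction nor normalization, with or without the block, but lay at -0.082 and -0.054 relative to the median of all probe sets, which was then 0.108, and Ccr2 and Ccr9 to 0.156 and -0.457 in arrays numbered 1 and 2 alone. Leaving out 1 array breaks a pair, and the genotype difference then ran from -1.81 to 0.44 for Cxcr2, -1.16 to 0.52 for Ccr7, -0.23 to 0.019 for Cxcr4, -0.15 to 0.051 for Cxcr3, -0.62 to 0.63 for Ccr2, -0.10 to 0.51 for Ccr9 and -0.053 to 0.16 for Cx3cr1, none past the threshold. For Cxcr2 and Ccr7 the lowest values came without Selp-/- 3 and the highest without WT 3. The number 3 minus mean of 1 and 2 ran from 3.12 to 3.66 for Cxcr2, 2.36 to 2.66 for Ccr7, 1.42 to 2.17 for Ccr2 and 0.28 to 0.44 for Cxcr4, and the first 3 passed without each array in turn. The filter at the 60th percentile left Ccr2, Ccr9 and Cxcr3 out. With neither background correction nor normalization, which leaves in the higher median intensities of the arrays numbered 3, Cxcr4 reached 0.625 and passed, Ccr9 reached 0.233 and Cxcr3 0.042. For Ccr9 it was -1.11 without Selp-/- 3 (adjusted p 0.0192, limma) and 1.06 without WT 3 (0.0275), where number 3 has 1 array, assumed to vary like the others, and 0.011 without background correction. These p-values compare array numbers, and the genotype difference of Ccr9 at number 3 was not tested. The cause of these changes was not tested. Low signal limits Ccr1 and Ccr3, whose mean lay under the filter level, and Cxcr2 and Ccr2, whose mean over arrays numbered 1 and 2 did.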
